A study of Triticum aestivum with 8 samples.

Results

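The alpha- and beta-tubulin genes of winter wheat crowns were followed through cold acclimation on 10 probe sets of 6 genes, out of 61115 probe sets tested and 771 genes named in the array annotation. The members were taken from the gene names of the array annotation. The symbol TUBA, an alpha-tubulin gene, is carried by 2 probe sets. The symbol TUB is carried directly by none, and 8 probe sets of 5 beta-tubulin genes were matched because TUB is another name of their genes in the gene table. Each probe set was kept apart. The beta-tubulin genes are tubb1 (Ta.212.1.S1_at), tubb2 (Ta.1544.1.S1_at), tubb3 (Ta.2837.1.S1_s_at), Tubb4 (Ta.28022.1.S1_x_at) and Tubb5, which has 4 probe sets (Ta.214.1.S1_at, Ta.214.1.S1_x_at, Ta.214.2.A1_at and Ta.214.2.A1_x_at). The TUBA probe sets are Ta.723.1.S1_at and Ta.812.1.S1_x_at. Of the tested probe sets 59842 carry no symbol in the annotation, so that other tubulin genes of wheat can be on the array without a name. The name ending s_at or x_at marks a probe set whose probes can also match other transcripts, and wheat, as a hexaploid, has near-identical gene copies that a probe set may read together.

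Crown tissue of a freeze-resistant line (FR, SD16029) and a freeze-susceptible line (FS, SD16169) was hybridized, 2 arrays for each of 4 groups. These were FR cold-acclimated (FR CA), FR non-acclimated (FR NT), FS cold-acclimated (FS CA) and FS non-acclimated (FS NT). Both lines are sodium azide mutants of the winter wheat cultivar Winoka, so that all 4 groups carry a mutagenized background and neither line is the parent. Plants grew in a greenhouse at 22–28°C (25°C in the labels) with a 14 h photoperiod. NT crowns were cut when 3 to 4 leaves were out, and CA crowns came from plants that spent a further 4 weeks at 4°C. Those plants were moved from the greenhouse to a 4°C chamber. Cold, 4 weeks of added age and the change of growing place therefore cannot be told apart here. The RNA of an array was pooled from 3 biological replicates, and the study describes the arrays of a group as technical replicates, so that p-values measure only the spread between arrays. The values are log2 signals. Array medians lay at 2.86 to 2.95 and the highest signals at 16.70 to 16.89, and a floor of 2.15 took up 31.9% to 32.6% of each array. Arrays of a group correlated at r = 0.995 to 0.997 across probe sets. Spike-in controls read 0.60 higher on CA than on NT arrays in each line, and setting the arrays relative to them moves the median change of all tested probe sets by −0.60.

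Alpha- and beta-tubulin join as a dimer, and these dimers assemble into microtubules. In plants microtubules lie under the plasma membrane, where they guide the enzymes that lay down cellulose, and they build the spindle and the phragmoplast of dividing cells. Microtubules are known to come apart in the cold in many organisms, and plants have several genes for each tubulin. The crown holds the shoot meristem from which winter wheat regrows. Separate roles of the 5 beta-tubulin genes were not annotated in the sources used here.

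The probe sets were grouped by their measured change on the FR arrays alone. A probe set was counted as falling where the FR CA mean was at least 1 log2 unit (2-fold) under the FR NT mean and the FR arrays did not overlap, and as holding otherwise. By this rule 3 probe sets fall (tubb1, tubb3 and TUBA S1_at) and 7 hold (tubb2, Tubb4, the 4 of Tubb5 and TUBA S1_x_at), and none rises. The FR changes given below set which members fall and which hold, and are a description. Just inside the threshold lay tubb3, with a log2 change of −1.01, and the nearest probe set outside it was Tubb5 A1_at, with −0.65. The FS arrays, the differences between the lines and the type of probe set were not used by the rule.

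**Figure D1:**
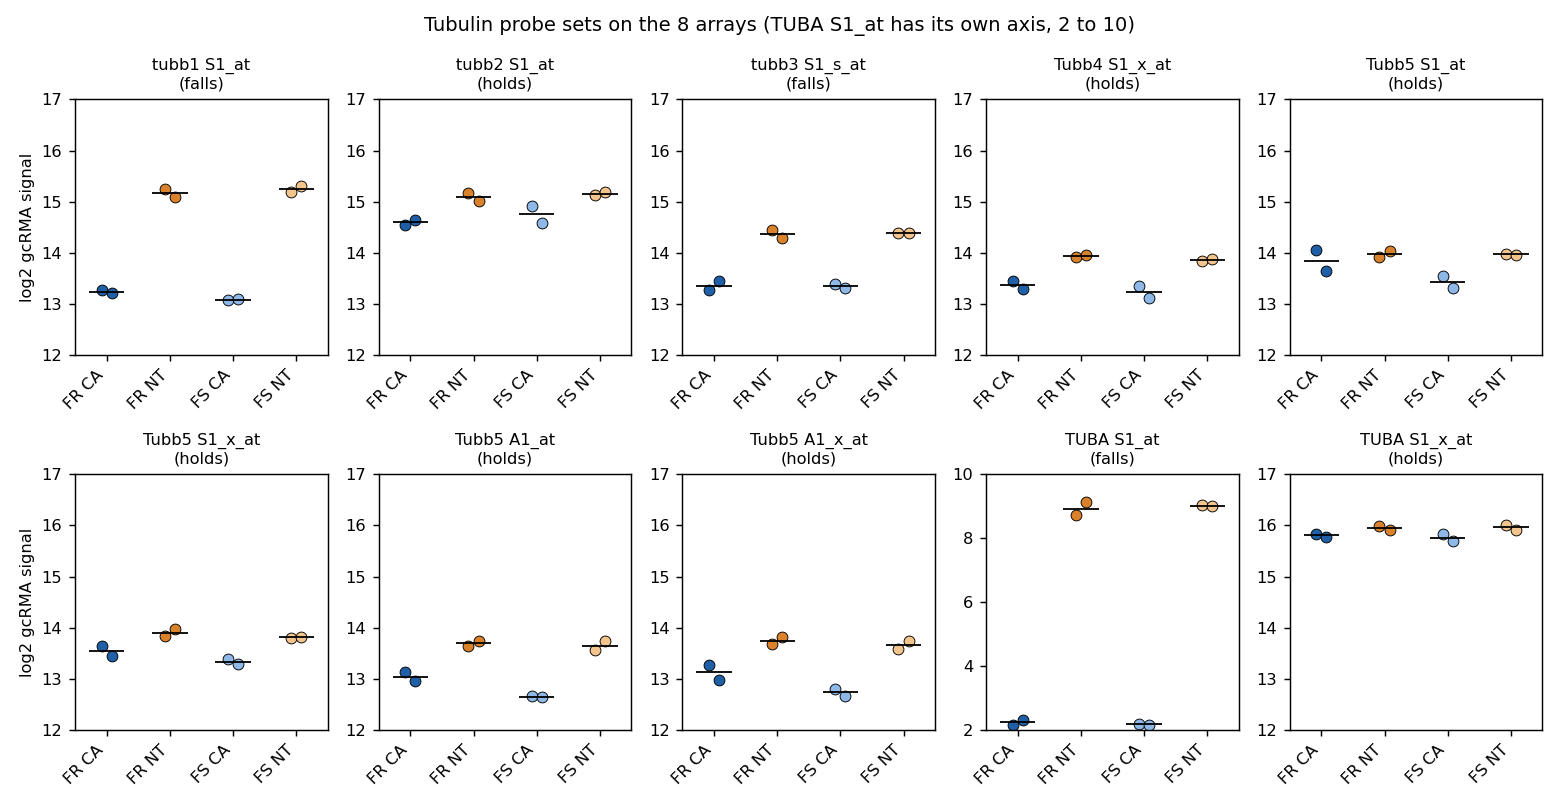
Log2 gcRMA signal (y axis) of each tubulin probe set on the 8 arrays, with 1 panel for each probe set, points for arrays and lines for group means (n = 2 arrays). The y axis runs from 12 to 17 except for TUBA S1_at, which has an axis of 2 to 10. TUBA S1_at, tubb1 and tubb3 show the wide steps between CA and NT, and TUBA S1_x_at stays between 15.69 and 16.01.

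Among the beta-tubulins the widest change was that of tubb1. Its log2 signal was 13.26 and 13.21 on the FR CA arrays, against 15.25 and 15.09 on the FR NT arrays. In FS it was 13.07 and 13.09 with CA, against 15.19 and 15.31 with NT. The arrays of both lines thus form a low CA pair and a high NT pair with a wide gap between them. The log2 change was −1.93 in FR, which leaves 26.2% of the NT level. In FS tubb1 fell by 2.17 ± 0.073 (SE, n = 2 arrays per group), to 22.3% of the NT level (adjusted p = 9.7e-05, limma). In bulk tissue, fewer cells that express a gene and less of its RNA per cell cannot be told apart, here and in all results below.

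The tubb3 probe set, whose s_at ending allows reads from related transcripts, changed about as much in the 2 lines. Its signals were 13.27 and 13.44 in FR CA, against 14.45 and 14.28 in FR NT. They were 13.40 and 13.31 in FS CA, against 14.38 and 14.39 in FS NT. In each line the CA pair lies below the NT pair with no overlap. The log2 change was −1.01 in FR (2.02-fold lower), and in FS tubb3 fell by 1.03 ± 0.089 (2.05-fold lower, adjusted p = 0.00114, limma).

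TUBA S1_at is the dim member, and its change spans the detection range. Its signals were 2.15 and 2.32 in FR CA, against 8.73 and 9.13 in FR NT. They were 2.19 and 2.15 in FS CA, against 9.03 and 9.01 in FS NT. All 4 CA arrays lie at or near the floor and under their array median, and all 4 NT arrays lie well above it. As read, the log2 change was −6.69 in FR and −6.85 ± 0.16 in FS (adjusted p = 4.4e-05 in FS, limma). With every signal under the array median raised to that median, the CA level was at least 66.4-fold lower in FR and at least 71.4-fold lower in FS, bounds that allow for dim signals and not for the spread between arrays.

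The other probe set of the same annotated gene, TUBA S1_x_at, read near the top of the scale and had the smallest FS change of the 10. Its signals were 15.83 and 15.78 in FR CA, against 15.99 and 15.91 in FR NT. They were 15.83 and 15.69 in FS CA, against 16.01 and 15.91 in FS NT. The CA pairs lie under the NT pairs by a far smaller step than that of S1_at. The log2 change was −0.15 in FR and −0.20 ± 0.075 in FS, which missed the threshold (adjusted p = 0.137, unadjusted p = 0.0480, limma). It was called lower in FS with probe sets filtered at the array median (adjusted p = 0.0462, limma). Relative to the spike-ins, a setting that moves the change of every probe set by −0.60, it was called lower in both lines (log2 changes of −0.75 in FR and −0.80 in FS). Over the alternatives its adjusted p in FS was 0.0115 to 0.484. These signals lie 0.75 to 1.20 log2 units under the highest signal of their array, and whether they are compressed near the top of the scale was not tested. The annotation thus gives 1 gene with a pair of probe sets that read apart, 1 near the floor in CA and 1 near the top of the scale in every group. Their names carry different numbers, Ta.723 and Ta.812, and on the NT arrays they already lay 6.79 to 7.26 log2 units apart. Whether they read the same transcript was not tested.

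The 4 probe sets of Tubb5 share 1 gene and are not independent readings. The widest change among them was that of A1_at, with signals of 13.13 and 12.95 in FR CA, against 13.64 and 13.74 in FR NT. In FS it read 12.65 and 12.63 with CA, against 13.55 and 13.73 with NT. The FS CA pair is the lowest of the 4 pairs. It changed by −0.65 on the log2 scale in FR, and in FS Tubb5 A1_at fell by 1.00 ± 0.092 (adjusted p = 0.00143, limma). Tubb5 A1_x_at read 13.27 and 12.98 in FR CA, against 13.67 and 13.81 in FR NT, and 12.80 and 12.67 in FS CA, against 13.58 and 13.73 in FS NT. Its log2 change was −0.62 in FR, and in FS it fell by 0.92 ± 0.13 (adjusted p = 0.00539, limma). The A1 pair of probe sets thus gave like values.

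The S1 probe sets of Tubb5 changed less. Tubb5 S1_at read 14.05 and 13.64 in FR CA, against 13.91 and 14.04 in FR NT, and the FR arrays overlap, the only such case among the 10 probe sets. In FS it read 13.54 and 13.31 with CA, against 13.97 and 13.96 with NT, with no overlap. In FR the log2 change was −0.13, and 0.07 when FR CA replicate 2 was left out. In FS it was −0.54 ± 0.16, which missed the threshold (adjusted p = 0.0720, limma). Tubb5 S1_x_at read 13.64 and 13.44 in FR CA, against 13.83 and 13.97 in FR NT, and 13.38 and 13.28 in FS CA, against 13.80 and 13.82 in FS NT. Its log2 change was −0.36 in FR, and in FS it fell by 0.48 ± 0.092 (adjusted p = 0.0167, limma). That call was lost when any 1 of the 4 FS arrays was left out (adjusted p = 0.0535 to 0.0862).

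Tubb4 and tubb2 complete the holding members. Tubb4 read 13.45 and 13.29 in FR CA, against 13.91 and 13.95 in FR NT, and 13.36 and 13.10 in FS CA, against 13.84 and 13.87 in FS NT. In FR its log2 change was −0.56, and in FS Tubb4 fell by 0.63 ± 0.10 (adjusted p = 0.00949, limma). That call was lost without FS NT replicate 2 (adjusted p = 0.0526, the highest of its alternatives, which ran down to 2.1e-05). The tubb2 probe set read 14.55 and 14.64 in FR CA, against 15.17 and 15.02 in FR NT. In FS it read 14.92 and 14.59 with CA, against 15.12 and 15.18 with NT. The FS CA arrays of tubb2 lie apart from each other by more than those of the other probe sets, and both still lie under the FS NT arrays. The log2 change was −0.50 in FR and −0.40 ± 0.13 in FS (adjusted p = 0.0913, limma, and 8.7e-04 to 0.288 over its alternatives, with 0.0254 without FS CA replicate 1).

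**Figure D2:**
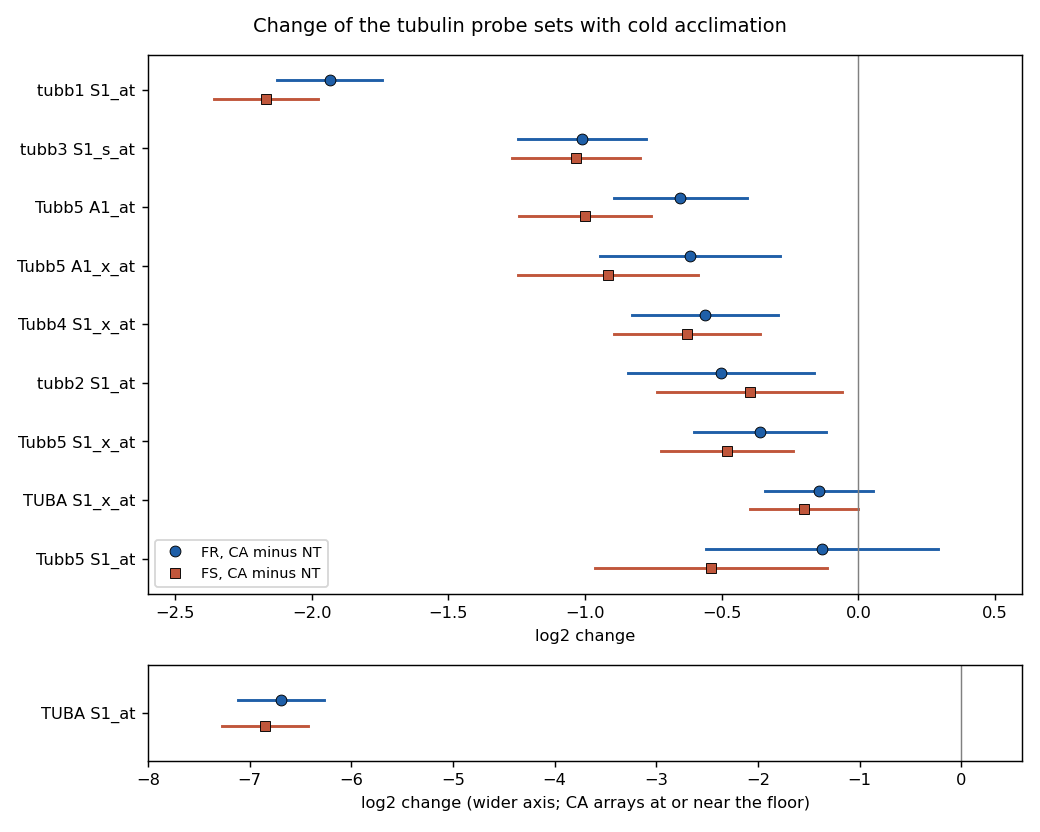
Log2 change with cold acclimation (x axis, CA minus NT) of the 10 tubulin probe sets, with FR as circles, FS as squares and bars for the 95% interval of the moderated model (n = 2 arrays per group). TUBA S1_at has a wider axis of its own below the others. The changes of all 10 lie under 0 in both lines, from −0.13 to −6.85.

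Counted over the 10 probe sets, the change ran in 1 direction in both lines. The 10 stand for 6 genes, with 4 of them of Tubb5, so that they are not independent readings. As the members were chosen with earlier results of these data known, the counts are a description. In FR 8 of 10 were called lower at an adjusted p under 0.05 (limma), where 13.6% of all tested probe sets were, and none was called higher, where 15.3% were. In FS 7 of 10 were called lower, against 13.8% of all, and none higher, against 16.4%. Probe sets above the array median are called more often. Among the 28242 probe sets above their array median on all 8 arrays, 25.3% in FR and 25.5% in FS were called lower, and 9 of the 10 tubulin probe sets are of this kind. Array medians lay at 2.86 to 2.95, near the floor of 2.15, while these 9 read 12.63 to 16.01. The shares are thus not those of probe sets as bright as the tubulins. The CA arrays lay below the NT arrays with no overlap for 9 of 10 in FR. The same was so for 21.1% of all tested probe sets and 36.4% of those 28242 probe sets. In FS it was 10 of 10, against 21.6% and 37.3%. The median log2 change of the 10 was −0.59 in FR and −0.77 in FS, beside 0.00 in each line for all tested probe sets. The FR count, which shares its arrays with the rule, was 4 without FR CA replicate 2, FR NT replicate 1 or FR NT replicate 2, and 6 or 7 without 1 of the other 5 arrays. The FS count was 5 to 8 with 1 array left out, with its lowest value without FS NT replicate 2.

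The division made on the FR arrays was next read on the FS arrays. In FS the 3 falling probe sets changed by −6.85 to −1.03 (median −2.17), and the 7 holding ones by −1.00 to −0.20 (median −0.54). The order of the 2 kinds was thus kept in FS, yet the edge between them was narrow there. The 95% intervals of tubb3 (−1.27 to −0.80) and Tubb5 A1_at (−1.24 to −0.76) in FS overlap over nearly their whole length. All 3 falling probe sets and 4 of the 7 holding ones were called lower in FS. Drawn on the FS arrays, the same rule gives 4 falling probe sets, with Tubb5 A1_at added. Holding therefore means a change smaller than 2-fold in FR, and not the lack of a change. The x_at ending belongs to 0 of the 3 falling and 4 of the 7 holding probe sets. The falling tubb3 has the s_at ending, whose probes can also match other transcripts. The part of cross-matching probes in the division was not tested.

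The next comparison asked whether the tubulins differ between the FR and FS lines. In CA crowns none of the 10 passed the threshold (limma), where 0.373% of all tested probe sets did. At an unadjusted p under 0.05 there were 2 of 10, beside 7.64% of all tested probe sets and 13.4% of those above the array median on all arrays. The log2 differences, FR minus FS, ran from −0.16 to 0.42, and 8 of 10, 4 of them of the single gene Tubb5, were above 0 (with centred arrays tubb3 was too). This was so for 29.9% of all tested probe sets, and for 39.3% of those above the array median on all arrays. The wider ones belonged to Tubb5. Its A1_at probe set read 0.40 higher in FR than in FS after cold acclimation (95% interval 0.15 to 0.64, adjusted p = 0.329, unadjusted p = 0.00926), and A1_x_at 0.39 higher (0.06 to 0.72, adjusted p = 0.527, unadjusted p = 0.0297). For S1_at the difference was 0.42 (−0.01 to 0.84, adjusted p = 0.670), and for S1_x_at 0.21 (−0.03 to 0.45, adjusted p = 0.765). The tubb1 difference was 0.15 (−0.04 to 0.35, adjusted p = 0.821). Without FR CA replicate 1 the difference was 0.21 for S1_at, 0.11 for S1_x_at and 0.25 for A1_x_at. The same 3 read 0.62, 0.31 and 0.53 with FR CA replicate 2 left out.

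For these 5 probe sets, tubb1 and the 4 of Tubb5, both FR CA arrays read above both FS CA arrays. This held for 9.59% of all tested probe sets, and for 16.5% of those above the array median on all arrays. As 4 of the 5 share 1 gene, the count stands for 2 genes. In NT crowns no tubulin was called (limma, against 0.0213% of all) and 0 had an unadjusted p under 0.05 (against 1.43% of all), with differences of −0.09 to 0.09 and 95% intervals that together span −0.51 to 0.43. The difference in response, the FR change minus the FS change, passed the threshold for none (limma, against 0.108% of all). At an unadjusted p under 0.05 there was 1 of 10, beside 4.47% of all tested probe sets and 6.91% of those above the array median on all arrays. It ran from −0.10 to 0.41. For Tubb5 A1_at it was 0.35 (0.0045 to 0.69, adjusted p = 1, unadjusted p = 0.0481), and for tubb1 0.23 (−0.04 to 0.50, adjusted p = 1). At 2 arrays a group, differences of this size between the lines were not resolved.

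**Figure D3:**
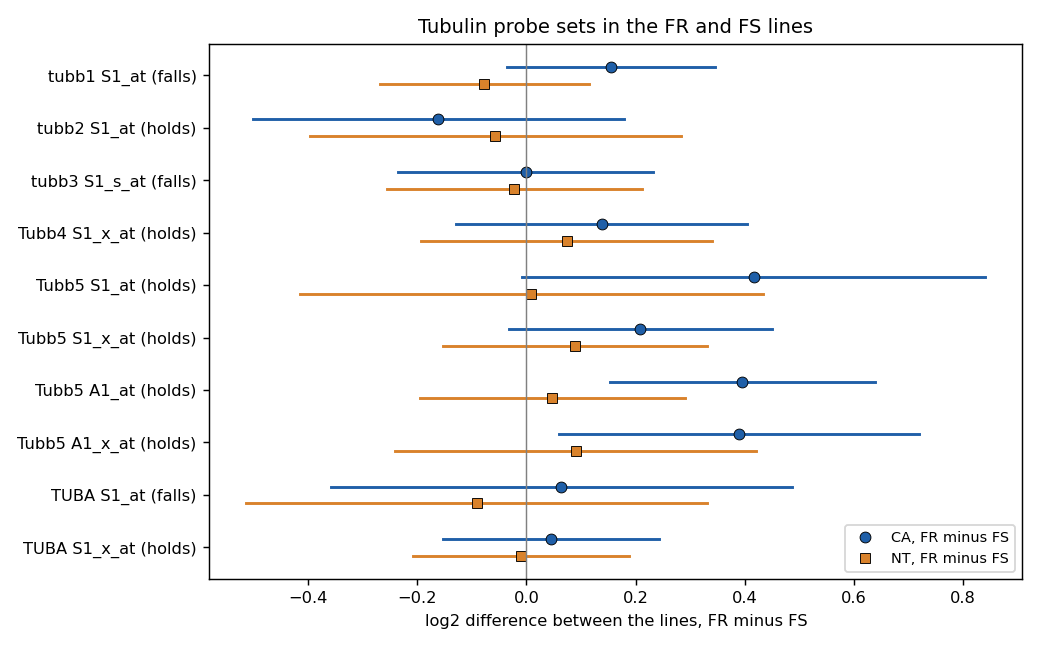
Log2 difference between the lines (x axis, FR minus FS) for each tubulin probe set in CA crowns (circles) and NT crowns (squares), with 95% intervals (n = 2 arrays per group). The 4 Tubb5 probe sets lie 0.21 to 0.42 above 0 in CA and near 0 in NT, and none passed the threshold.

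Probe sets whose names carry the same cluster number as a member may read related transcripts, and 7 of them were found, a set chosen after the members' values were known. Of these only Ta.812.2.A1_x_at is in the annotation, under the symbol LOC100049037, and no gene name is given here to the others. Cluster Ta.812, that of TUBA S1_x_at, held probe sets with wide and with narrow changes. Ta.812.4.S1_at read 12.13 and 12.23 in FR CA, against 15.12 and 15.16 in FR NT, and 11.95 and 11.75 in FS CA, against 15.20 and 15.14 in FS NT. It was lower in CA by a wide gap in both lines, with a log2 change of −2.96 in FR and −3.32 in FS (adjusted p = 4.8e-05 in FS, limma). Ta.812.4.S1_x_at changed by −2.05 in FR and −2.08 in FS (adjusted p = 0.0121, limma), and Ta.812.3.S1_x_at by −1.43 and −1.38 (adjusted p = 2.1e-04, limma). Ta.812.2.A1_x_at changed by −0.03 in FR and −0.08 in FS (adjusted p = 0.560, limma), so that the FR changes of these 4 ran from −0.03 to −2.96, beside −0.13 to −1.93 over the beta-tubulin probe sets.

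In cluster Ta.28022, that of Tubb4, the A1_at probe set fell and the other pair did not pass the threshold. Ta.28022.2.A1_at read 12.44 and 12.21 in FR CA, against 13.09 and 13.21 in FR NT, and changed by −0.82 in FR and −0.90 in FS (adjusted p = 0.00204, limma). Ta.28022.3.S1_at changed by 0.21 in FR and 0.22 in FS (adjusted p = 0.111, limma), and Ta.28022.3.S1_x_at by 0.17 and 0.18 (adjusted p = 0.259, limma).

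**Figure D4:**
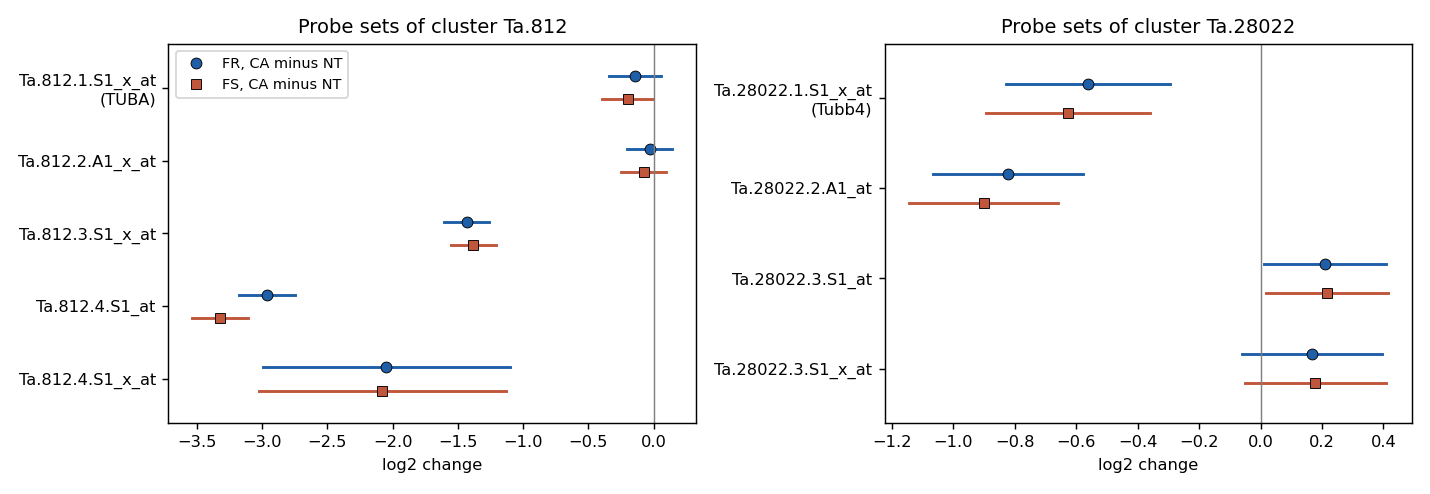
Log2 change with cold acclimation (x axis, CA minus NT) of the probe sets that share a cluster number with TUBA S1_x_at (left) and with Tubb4 (right), in FR (circles) and FS (squares), with 95% intervals (n = 2 arrays per group). In cluster Ta.812 the changes run from −0.03 to −3.32, and in cluster Ta.28022 from −0.90 to 0.22.

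Other genes of the cytoskeleton and of growth were read from lists of gene names. Of the other cytoskeleton names 1 gene matched, PRO1, a profilin, which binds actin. Both its probe sets were called lower in both lines, where 13.6% of all tested probe sets were in FR and 13.8% in FS. Their log2 changes were −2.23 and −1.16 in FR and −2.06 and −1.27 in FS. The list of cell division and chromatin genes matched 9 probe sets, all of histone H2A genes, whose product packs DNA into chromatin. Histone genes named otherwise in the gene table, such as wcH2B, did not match its patterns and were not counted. Of the 9 probe sets 8 were called lower and 1 higher in each line, with a median log2 change of −6.52 in FR and −6.59 in FS. Of all tested probe sets 13.6% were called lower and 15.3% higher in FR, and 13.8% and 16.4% in FS. Most of the 9 are of the single gene H2A-9, so that they are not independent readings. Probe set Ta.27657.12.S1_at of H2A-9 changed by −10.04 in FR and −10.82 in FS, as read from CA signals of 2.82 to 3.96, near the floor of 2.15. Ta.27657.7.S1_x_at of H2A-9 changed by −6.85 and −6.75. The higher one was an s_at probe set of H2A-3, with 0.99 in FR and 1.31 in FS. The log2 changes of the beta-tubulins were smaller than these medians.

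The cell wall list matched XTH, which remodels xyloglucan, and COMT1, an enzyme of lignin synthesis. Both were called lower in both lines, where 13.6% of all tested probe sets were in FR and 13.8% in FS. XTH had log2 changes of −2.90 in FR and −3.18 in FS, and COMT1 had −2.90 and −2.87. The reference gene list matched TEF1, by its name a translation elongation factor, whose 2 probe sets were not called in either line (log2 changes of 0.22 and 0.09 in FR and 0.12 and 0.12 in FS). As a check of the treatment, 6 of 10 probe sets of cold-regulated genes were called higher in FR, against 15.3% of all tested probe sets. In FS 7 of 10 were, against 16.4%, and none was lower in either line. The median log2 change was 2.26 in FR and 3.31 in FS. Several of the 10 share a gene, such as rab or Em, and 1, COR410, lay under its array median on all arrays. The rab probe set Ta.2704.1.S1_at, for a protein that accumulates in water stress, was higher by 9.90 in FR and 11.13 in FS. TaAffx.46097.2.S1_at, also rab, was higher by 11.39 in FR and 12.14 in FS, as read from NT arrays that all lay under their median.

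The crown was taken as a tissue without leaf, and the markers of photosynthetic tissue were read beside the tubulins. The list holds 33 probe sets, of which 23 lay under their array median on all arrays, and 4 (12.1%, beside 13.6% of all probe sets in FR and 13.8% in FS) were called lower in each line and none higher. The nuclear markers OEE1 and OEE2, of the oxygen-evolving complex, and petC, of the cytochrome complex, have 5 probe sets, of which 4 were well above the array median in every group and lower in CA in both lines. OEE1 averaged 13.30 in FR CA, against 14.63 in FR NT, and 13.59 in FS CA, against 14.61 in FS NT. OEE2 probe sets changed by −3.86 and −4.99 in FR and −3.80 and −4.70 in FS, and petC by −0.82 in FR and −0.66 in FS. The other 28 probe sets are all of rbcl, the chloroplast gene for the large subunit of Rubisco, and none of them was called in either line, the 5 above the array median on all arrays included. All of these 5 still read lower in CA in both lines, with a median log2 change of −0.19 in FR and −0.35 in FS. Among them TaAffx.128896.17.S1_s_at changed by −0.58 in FR and −1.05 in FS, and the bright Ta.24976.1.S1_x_at by −0.13 and −0.21. The calls thus cover nuclear markers alone. Of the 28 rbcl probe sets 22 lay under their array median on all arrays and could not show a decrease. The part of the markers in the tubulin result was not tested.

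Last, the named probe sets most like the members were found by Pearson's r over the 8 arrays, among 943 candidates. The measure mostly follows the step between CA and NT that all 8 arrays share. For tubb2, the TUB probe set with the highest mean, they were LOC543088 (r = 0.965), LOC780658 (0.952) and LOC542768, also named TSA (0.951). For TUBA S1_x_at they were LOC606356 (r = 0.945), LOC543463 (0.942) and LOC543348 (0.939).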

How the data were processed

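Crown RNA was hybridized to the Affymetrix wheat array, 2 arrays for each of 4 groups of line and treatment. The deposited log2 values come from gcRMA, with which the authors removed background and made the 8 arrays comparable. RMA and GCRMA stand in the processing notes of the submitters, and their versions are not given in the sources used here. The values were used as deposited, with no filter. Of 61290 probe sets 175 controls were set aside. The other 61115 were fitted in R 4.3.3 with limma 3.58.1, with 4 group means and moderated variances that follow the signal (residual degrees of freedom 4, prior 0.623), and p-values were adjusted by Benjamini-Hochberg over all of them. Calls needed an adjusted p under 0.05. The script was tested on simulated data, where the check was that planted changes came back near their size. Recovery and false calls of that test are not given here. The number of arrays limits the precision.

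The named genes are all probe sets matched to TUB or TUBA, for the brightest TUB and TUBA probe set the 3 most like it, and of each list the 2 higher and 2 lower called probe sets with the widest mean change; other list members named in the text were chosen after their values were seen. The plan was to match TUB as a symbol. As no probe set carries it, other names in the gene table were used (assembly IWGSC CS RefSeq v2.1). The members and lists were chosen with earlier results of these data known. Alternatives were a filter at the array median, a floor there, centred arrays, scaling to spike-ins, other variance models, the replicate number as a block, and each array left out. Plots used matplotlib 3.10.9 under Python 3.11.15.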

Additional observations from a re-analysis of the deposited data

How the results depend on the processing

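Under the 7 alternative settings and the 8 fits with 1 array left out, no tubulin probe set was called in FR against FS in CA or in NT, or in the difference in response. Of the 10 members, 6 to 8 were called lower in FR and 7 to 10 in FS under the filter, the floor, centring and the other variance models. Relative to the spike-ins 10 were called in each line, but this setting moves the change of every probe set by −0.60. The shares of all tested probe sets called under these settings are not given here. With an array left out the FR count was 4 to 7 and the FS count 5 to 8. With the replicate number as a block the FR count was 5, and tubb2, Tubb5 S1_x_at and Tubb5 A1_x_at were lost, while the FS count stayed at 7. The numbers 1 and 2 are shared by the groups and no source says that they pair the arrays. Deviations of same-numbered arrays correlated at r = 0.127 to 0.448 over the 6 pairs of groups.

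In the division into falling and holding probe sets, 7 fell with a threshold of 0.5 log2 unit, and 7 relative to the spike-ins, a setting chosen after seeing the data. In FS, tubb2 and Tubb5 S1_at were called under the filter, the floor, centring and the spike-ins, and TUBA S1_x_at under the filter and the spike-ins. Signs that turned belonged to small values. The FR minus FS difference in CA of tubb3 was 0.056 with centred arrays and −0.090 to 0.087 with an array left out. In the same comparison the range was −0.33 to 0.0043 for tubb2, −0.019 to 0.15 for TUBA S1_at and −0.029 to 0.12 for TUBA S1_x_at. The FR change of Tubb5 S1_at was −0.34 to 0.072 with an array left out, and −0.73 relative to the spike-ins. The cause of these shifts was not tested. Where an array was left out, the lone array of its group was assumed to vary like the others.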
